A study of Caenorhabditis elegans with 2 samples.

Results

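The regions described here are 386 autosomal sites of a UNC-30 ChIP-seq experiment that lie in intergenic DNA far from gene starts. They were selected on the measured signal of the pooled list: among its 3000 regions of highest signal, 2500 were on the 5 autosomes, and 386 of these had a summit outside every annotated gene body and over 2000 bp from the 5′ end of any protein-coding gene. The whole pooled list holds 30000 regions. The immunoprecipitation used whole L1 larvae of strain OP395, of mixed sex, which carries unc-119(tm4063) on chromosome III and the integrated transgene wgIs395, from which UNC-30 is made with GFP and FLAG joined to its C terminus. The 2 libraries are biological replicates 1 and 2 of this single group, and no condition without the transgene was analysed here. In whole larvae the few neurons that make UNC-30 are a small share of the chromatin, and the promoter that drives the transgene is not named in the labels. No file holds read counts, and library depth is unknown.

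UNC-30 is a homeodomain protein of the Pitx family. It sets the identity of the worm's D-type GABAergic motor neurons by turning on unc-25, the gene of the GABA-synthesizing enzyme, and unc-47, the gene of the transporter that loads GABA into vesicles. Homeodomains of the bicoid and Pitx type bind TAATCC, whereas many other homeodomains bind TAATTA. Most regulatory sequence of the compact worm genome lies close to gene starts, and distal intergenic elements are rarer; chromosome IV also carries broad clusters of piRNA genes in intergenic and intronic DNA.

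The sequences that hold TAATCC show where the letters fall relative to the summit, the point of highest signal in a region. The sequences of 6 members of high signal that hold it are given here as 201 bp windows centred on the summit, read on the forward strand of WBcel235 (ce11) from RefSeq. Each is named by the 2 protein-coding genes that flank it, and capitals mark TAATCC or its reverse complement GGATTA.
nspb-12/molo-1 (chrIII:5571178-5571378): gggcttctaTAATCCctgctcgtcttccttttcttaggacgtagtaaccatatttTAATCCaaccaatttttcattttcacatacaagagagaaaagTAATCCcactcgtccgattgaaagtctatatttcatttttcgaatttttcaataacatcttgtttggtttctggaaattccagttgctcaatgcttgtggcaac
gid-8/F53E2.2 (chrV:1471720-1471920): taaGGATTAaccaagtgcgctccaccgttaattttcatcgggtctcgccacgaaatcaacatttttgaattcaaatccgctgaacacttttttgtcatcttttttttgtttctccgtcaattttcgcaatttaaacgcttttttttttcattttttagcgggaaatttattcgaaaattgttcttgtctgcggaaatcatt
elt-7/C18G1.1 (chrV:4775224-4775424): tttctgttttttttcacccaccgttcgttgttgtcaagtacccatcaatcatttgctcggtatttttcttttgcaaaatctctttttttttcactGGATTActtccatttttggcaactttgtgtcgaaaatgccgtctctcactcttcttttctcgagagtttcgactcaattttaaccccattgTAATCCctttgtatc
Y47A7.2/ttc-37 (chrV:5201792-5201992): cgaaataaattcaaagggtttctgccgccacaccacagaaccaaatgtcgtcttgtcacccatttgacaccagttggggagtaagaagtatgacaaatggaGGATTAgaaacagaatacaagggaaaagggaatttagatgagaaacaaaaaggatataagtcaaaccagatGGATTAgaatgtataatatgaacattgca
T05C1.2/T05C1.3 (chrII:4485700-4485900): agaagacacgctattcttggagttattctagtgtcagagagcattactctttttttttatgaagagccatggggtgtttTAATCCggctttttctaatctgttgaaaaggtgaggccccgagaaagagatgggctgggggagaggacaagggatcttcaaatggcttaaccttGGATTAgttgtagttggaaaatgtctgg
C17G10.7/dhs-6 (chrII:5611116-5611316): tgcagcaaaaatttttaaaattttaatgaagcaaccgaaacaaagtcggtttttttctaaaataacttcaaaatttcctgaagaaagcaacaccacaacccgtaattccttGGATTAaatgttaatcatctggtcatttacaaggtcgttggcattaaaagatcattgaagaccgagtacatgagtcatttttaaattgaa
The window between nspb-12 and molo-1 holds 3 copies, all on the forward strand, and the copy nearest the summit was centred 0.5 bp from it. In the windows of elt-7/C18G1.1 and Y47A7.2/ttc-37 the nearest of 2 copies was centred 2.5 bp and 3.5 bp from the summit. The copy beside F53E2.2 lay near the window's edge, 94.5 bp from the summit.

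Members of still higher signal had no TAATCC in their windows. A further 3 members that ranked high in both replicates and lacked it are shown for contrast, with capitals for any other 6-mer of the motif list described further on and for CTGTTTCA, an element found upstream of piRNA genes.
znf-782/csn-4 (chrIV:1070457-1070657): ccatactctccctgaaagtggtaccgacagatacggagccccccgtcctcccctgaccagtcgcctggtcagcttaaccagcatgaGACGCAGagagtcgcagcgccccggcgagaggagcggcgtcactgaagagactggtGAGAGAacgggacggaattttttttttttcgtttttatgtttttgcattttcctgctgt
irld-55/Y37A1B.7 (chrIV:14034071-14034271): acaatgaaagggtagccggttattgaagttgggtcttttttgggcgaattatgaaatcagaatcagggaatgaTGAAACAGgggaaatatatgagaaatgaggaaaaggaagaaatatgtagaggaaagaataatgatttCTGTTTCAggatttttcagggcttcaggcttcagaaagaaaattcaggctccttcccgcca
plx-2/K04B12.2 (chrII:14427831-14428031): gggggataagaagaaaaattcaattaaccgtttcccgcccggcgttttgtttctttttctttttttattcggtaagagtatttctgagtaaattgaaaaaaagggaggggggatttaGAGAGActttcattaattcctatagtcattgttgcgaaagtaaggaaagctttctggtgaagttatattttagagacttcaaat
The window between znf-782 and csn-4 holds GACGCA and the overlapping ACGCAG as well as GAGAGA, the plx-2/K04B12.2 window holds GAGAGA, and the irld-55/Y37A1B.7 window holds no 6-mer of that list but 2 copies of CTGTTTCA, one on each strand. The absence of a motif says only that these letters are not in this window.

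Signal values, the authors' measure of the height of a region on a scale not given in the sources used here, ran from 20.9 to 88.8 over the members with a median of 23.97. Because the rule used this value, it is given as a description only. Members took places 9 to 3000 of the pooled ranking: 76 stood among the 500 highest, 138 at ranks over 500 to 1500 and 172 at ranks over 1500. The −log10 q-values reached 2.01 and had a median of 0.0351, so most members were weakly supported by that measure. Of the authors' 125 thresholded peaks, 15 or 12% were members, beside 386 of the 3000 highest regions. The 5 members just inside the limit had signals of 20.9438 to 20.9076, and the 5 candidates just outside it had 20.8817 to 20.8446. At the limit on distance, the closest member lay 2003 bp upstream of zig-7, and the next 4 lay 2005 to 2015 bp from a 5′ end.

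The members of highest signal flanked genes of varied function. The highest (rank 9, signal 88.8) covered positions 16865 to 17220 of chromosome I, between the converging 3′ ends of nlp-40, a neuropeptide gene, and rcor-1, which encodes a CoREST-type corepressor. Its summit lay 206 bp from the nlp-40 gene body and 441 bp from rcor-1. In the replicates' own lists it ranked 28 in replicate 1 with a signal of 42.4 and 16 in replicate 2 with a signal of 42.3, so it stood near the top of both.

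The second member (rank 14, signal 79.9, chromosome IV, 1070379 to 1070734) had its summit 3032 bp upstream of znf-782, a zinc finger gene. It ranked 19 in replicate 1 and 23 in replicate 2. The third (rank 22, signal 72.8, chromosome IV, 14033993 to 14034348) lay between irld-55 and Y37A1B.7 and only 64 bp from the microRNA gene cel-mir-52. It ranked 50 in replicate 1 and 15 in replicate 2, again high in both. The fourth (rank 47, signal 54.96) lay in the same gap and ranked 29 in replicate 1, against 6272 in replicate 2. These 2 regions of 1 gap thus differed in how far the replicates supported them.

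The next members are described by the genes beside them. The member between nspb-12 and molo-1 had a pooled signal of 51.4; molo-1 encodes an auxiliary subunit of acetylcholine receptors at the neuromuscular junction. Replicate 2 placed it at rank 38 and replicate 1 at rank 1729. The member 3040 bp upstream of plx-2, a plexin of the semaphorin pathway, had a pooled signal of 50.5, and the replicates placed it at ranks 105 and 169. The member beyond the 3′ end of gid-8, with a pooled signal of 50.02 and ranks 101 and 93, lay 3266 bp upstream of a 5′ end that F53E2.2 and unc-60, the cofilin gene, share. The member beyond the 3′ end of elt-7, an intestinal GATA factor gene, had a pooled signal of 49.3 and ranks 144 and 117. All 4 were within the 3000 highest regions of both replicates.

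Among the remaining members of the 20 highest, support came mostly from a single replicate. The region between F54F12.1 and Y39E4B.6 had rank 36 in replicate 1 and no match in replicate 2. The same held for the region 103 bp beyond the 3′ end of lin-42, the Period homolog of the heterochronic pathway (rank 419 in replicate 1), and for the region between F25F2.1 and cdh-4, a Fat-type cadherin gene (rank 242). The region 3052 bp upstream of lgc-26, a ligand-gated ion channel gene, ranked 121 in replicate 1 and had no match in replicate 2, and 63.9% of its 36-mers occur more than once in the genome. In the other direction, the region between cpf-2 and unc-64, the syntaxin gene, ranked 68 in replicate 2 and had no match in replicate 1, as did the region 2701 bp upstream of the chemoreceptor gene sru-15 (rank 203 in replicate 2).

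Support by both replicates was limited to few members. A member was called matched when a replicate's own list had, among its 3000 highest regions, a summit within 100 bp. By this measure 22 of 386 members were matched in both replicates, or 5.70% (95% Wilson interval 3.79 to 8.48). The share was 6.44% of all 2500 autosomal regions among the 3000 highest. The share among the members was thus near that background. Replicate 1 alone matched 125 members and replicate 2 alone 103, against 756 and 676 of the 2500 autosomal regions. The balance differed by rank. At ranks 1 to 500 the counts were 38 and 15 of 76 members, against 177 and 86 of 424 autosomal regions. At ranks over 500 to 1500 they were 50 and 48 of 138 members, against 302 and 283 of 839 autosomal regions. At ranks over 1500 they were 37 and 40 of 172 members, against 277 and 307 of 1237 autosomal regions. The balance thus changed with rank in much the same way over all autosomal regions. In neither replicate were 136 members matched, or 35.2%, against 36.3% of the autosomal regions. Over the replicates' whole lists of 30000 regions, 203 members were matched in both, or 52.6%, and 9 in neither, or 2.33%. The shares over all 2500 autosomal regions were 53.8% and 2.80%, near those of the members. The pooled list is made from the same 2 libraries, so a match in 1 of them is partly built into the choice of members. The intervals cover counting error only.

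**Figure D1:**
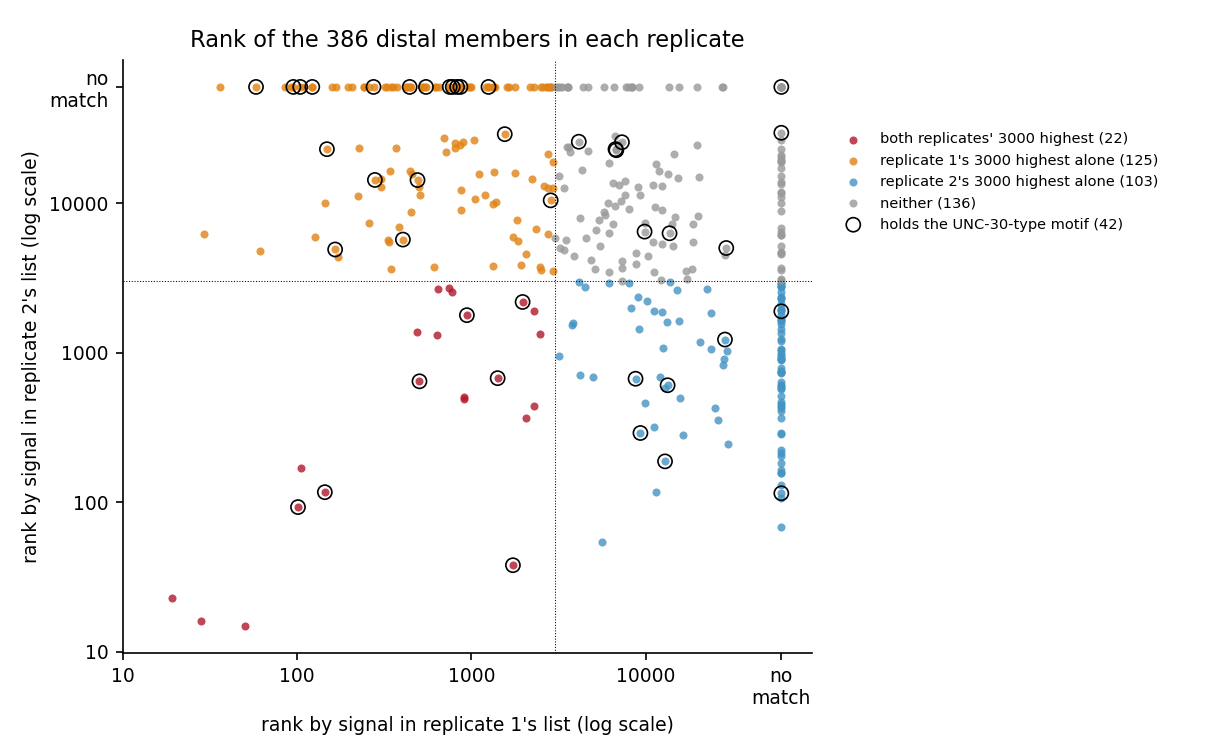
Each point is 1 of the 386 members, placed by the rank of its match in replicate 1's list (horizontal, log scale) and in replicate 2's list (vertical, log scale), with "no match" where no summit lay within 100 bp. Dotted lines mark rank 3000; 22 members fall below both lines, and circles mark the 42 members whose window holds TAATCC.

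All 22 members matched in both replicates were among the 500 highest pooled regions, where they made up 28.9% of 76 members, near the 32.3% of all 424 autosomal regions of those ranks. At ranks over 500 to 1500 the count was 0 of 138 members, which allows a share of up to 2.17% (3 counts of the total), against 2.62% of all 839 autosomal regions there, and at ranks over 1500 it was 0 of 172, which allows up to 1.74%, against 0.162% of all 1237. They were spread over the autosomes, with 4 on I, 4 on II, 6 on III, 5 on IV and 3 on V. Besides those already named, 2 of them flanked homeobox genes, chosen here for their function after their values were seen. The region 562 bp beyond the 3′ end of the Hox gene lin-39 had a pooled signal of 32.0 and ranks 773 and 2560. The region 19350 bp upstream of zfh-2, which lay nearer to T06A4.1 at 7649 bp, had a pooled signal of 28.8 and ranks 2287 and 1908. The region 3449 bp upstream of din-1, a corepressor gene, had a pooled signal of 35.5 and ranks 640 and 2654.

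Members were matched in both replicates less often than near intergenic regions. These are the 801 autosomal regions among the 3000 highest that lie outside gene bodies but within 2000 bp of a 5′ end. The shares were 5.70% of members and 10.9% of near intergenic regions (Fisher's exact test, two-sided, p = 0.00364). Near intergenic regions stood higher in pooled rank, with a median of 1213 against 1373.5 in members. At ranks 1 to 500 stood 200 of the 801 and 76 of the 386 members. The matched share is highest at those ranks, so this p-value does not separate position from rank. Over the replicates' whole lists the shares were 52.6% of members and 54.7% of near intergenic regions (exact p = 0.534), which ends that call. Within ranks 1 to 500, 28.9% of members and 39.5% of near intergenic regions were matched (exact p = 0.124), so the call did not hold within that range. At ranks over 500 to 1500 the counts were 0 of 138 members and 8 of 262 near intergenic regions (exact p = 0.0550). Against the 813 intronic regions of protein-coding genes, the shares were 5.70% of members and 3.32% of intronic regions (exact p = 0.0608). At ranks over 500 to 1500 the members stood lower instead, with 0 of 138 members and 11 of 269 intronic regions (exact p = 0.0188). For 118 distal regions of the X chromosome chosen by the same rule, the share was 11.0% (exact p = 0.0609 for the members against X), and at ranks over 500 to 1500 the counts were 0 of 138 members and 2 of 32 X regions (p = 0.0345). These p-values by rank are not adjusted. The p-values throughout compare sets of regions in these 2 libraries and do not measure a spread over animals or cultures.

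**Figure D2:**
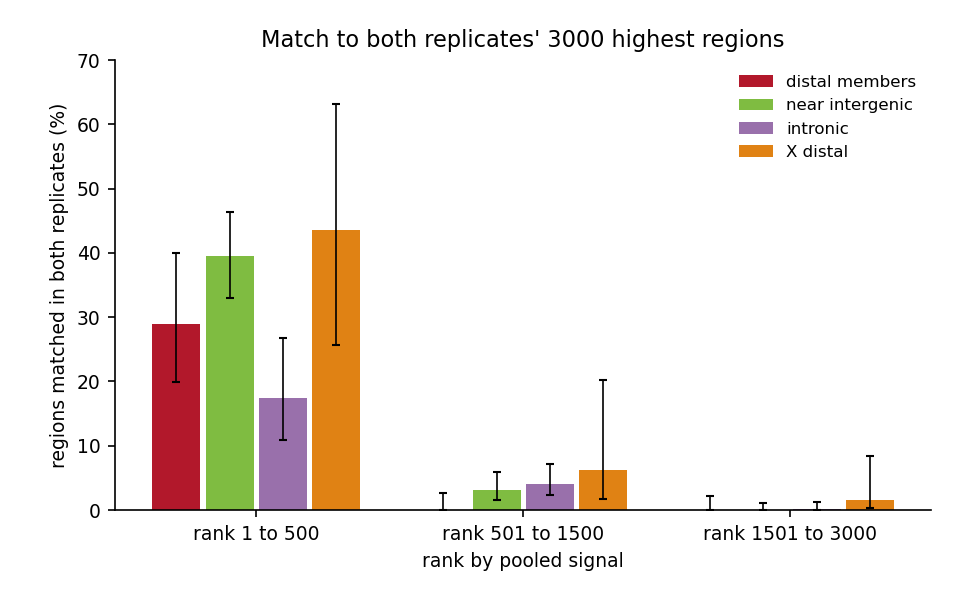
Bars give the percentage of regions with a match among both replicates' 3000 highest regions, by range of pooled signal rank, for the members and for near intergenic, intronic and X distal regions; whiskers are 95% Wilson intervals. At ranks 1 to 500 28.9% of members, 39.5% of near intergenic and 17.4% of intronic regions were matched.

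TAATCC was found in 42 of 386 member windows, or 10.9% (95% Wilson interval 8.15 to 14.4), counting both strands within 100 bp of the summit. Flanking windows of the same width, centred 1000 bp to each side of the members, held it in 55 of 744 cases, or 7.39% (Fisher's exact test, two-sided, p = 0.0565, and 0.565 after Benjamini-Hochberg adjustment over the 10 motifs tested). The difference did not pass the threshold of 0.05. Without adjustment, its exact p was below 0.05 in windows of 50 bp to each side of the summit. The shares there were 7.51% of members and 3.43% of flanks (Fisher's exact test, p = 0.00323). The same held with flanks centred 2000 bp away, with 10.9% of members and 6.26% of flanks (Fisher's exact test, p = 0.00725). The p-values of these alternatives were not adjusted over the 10 motifs. The difference was smallest with a limit of 4000 bp from the 5′ end, with 8.70% of members and 8.10% of flanks (exact p = 0.870). Its unadjusted p was also above 0.05 in windows of 200 bp to each side (Fisher's exact test, p = 0.183). So it was with only flanks that meet the rule on position (Fisher's exact test, p = 0.128). Pairing each member to 1 of its own flanks gave 10.7% of 373 members and 6.97% of their flanks (exact McNemar test, p = 0.0980). In the whole pooled list of 30000 regions the share was 7.18%. TAATTA, the core of other homeodomains, was in 12.4% of members and 10.1% of flanks (exact p = 0.229). The shorter TAATC was in 31.1% of members and 29.6% of flanks (exact p = 0.632). Near intergenic and intronic regions held TAATC in 32.0% and 33.1% of windows.

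The 3294 lower-ranked distal candidates met the same rule on position but stood below rank 3000. TAATCC was in 10.9% of members and 7.23% of these candidates (Fisher's exact test, two-sided, p = 0.0145, adjusted over the 10 motifs p = 0.0723). The difference thus did not pass after adjustment. Its unadjusted p was below 0.05, but not in each library alone. With members taken by the same rule from replicate 1's own list the shares were 11.2% of members and 7.65% of candidates (exact p = 0.0179), and from replicate 2's own list 8.83% of members and 7.89% of candidates (p = 0.488). The unadjusted p also fell short with a limit of 4000 bp from the 5′ end, with 8.70% of members and 7.02% of candidates (exact p = 0.448). Near intergenic regions held TAATCC in 8.99% of windows (exact p = 0.295 against the members) and intronic regions in 9.72% (p = 0.539).

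**Figure D3:**
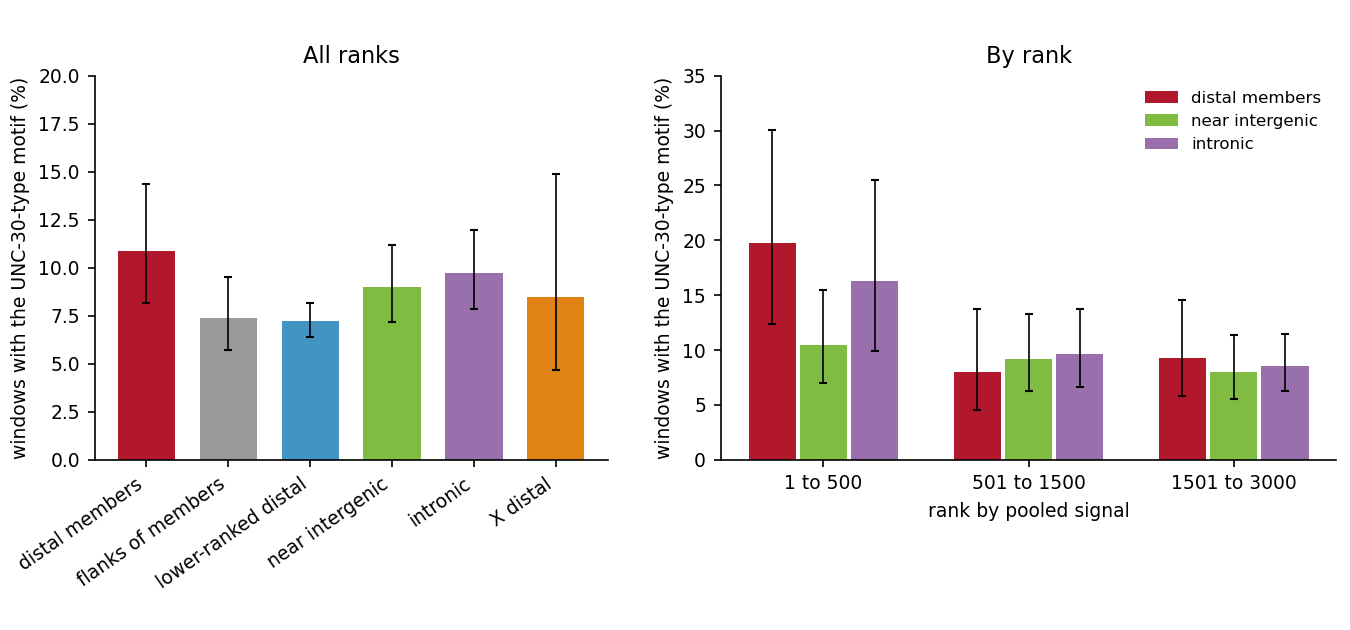
Left, the percentage of 201 bp windows with TAATCC, the UNC-30-type motif, in the members, their flanks and 4 other sets of regions; right, the same by range of pooled signal rank for members, near intergenic and intronic regions. Whiskers are 95% Wilson intervals; among members the share was 19.7% at ranks 1 to 500 and 7.97% and 9.30% at the lower ranks.

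The share with TAATCC was not even over the members. It was in 15 of 76 members at ranks 1 to 500, or 19.7%, and in 27 of 310 members at ranks over 500, or 8.71%. These splits were chosen after the shares were seen, and rank comes from the signal that chose the members, so they are described without a test. Members matched in both replicates held the motif in 7 of 22 cases, or 31.8%, and all other members in 9.62%. Near intergenic regions matched in both held it in 6 of 87 cases, or 6.90%, beside 8.99% of that whole set. For intronic regions matched in both it was 4 of 27, or 14.8%, beside 9.72% of the set. For X distal regions it was 1 of 13, or 7.69%, beside 8.47%. Within ranks 1 to 500 alone the shares were 31.8% of members matched in both and 14.8% of the other members. All 22 matched members stand at these ranks, so matched and other members can be compared only there. Rank within this range was not held equal, and the shares rest on 7 of 22 and 8 of 54 members. Members matched in replicate 1 alone held it in 15.2% and those matched in replicate 2 alone in 6.80% of cases. Among members matched in neither replicate the share was 6.62%.

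At ranks 1 to 500 the share of 19.7% in members stood beside 10.5% of 200 near intergenic regions and 16.3% of 86 intronic regions, likewise without a test. At ranks over 500 to 1500 the shares were 7.97% of members and 9.16% of near intergenic regions, and at ranks over 1500 they were 9.30% of members and 7.96% of near intergenic regions.

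Sites close to the summit stood at their highest level in the members. Members had 5.44 sites per 100 windows whose centre lay within 25 bp of the summit, against 1.55 in lower-ranked distal candidates, 2.02 in flanks around the flank's own centre, 2.25 in near intergenic and 3.44 in intronic regions. Between 25 and 50 bp members had 3.63 sites per 100 windows, between 50 and 75 bp 1.55, and between 75 and 100 bp 2.85. These counts rest on 21, 14, 6 and 11 sites and are given without a test. A single site was found in 33 members, 2 sites in 8 and 3 sites in 1.

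**Figure D4:**
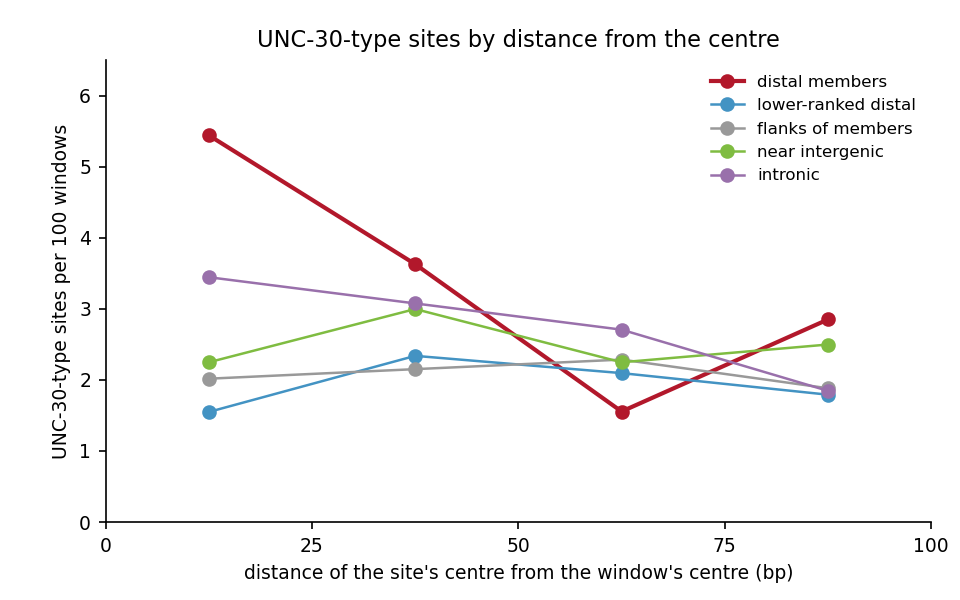
TAATCC sites per 100 windows (vertical axis) by distance in bp from the window's centre (horizontal axis), in 4 bins, for the members and 4 other sets. The members stand at 5.44 sites per 100 windows in the innermost bin and at 1.55 to 3.63 further out, whereas every other set lies between 1.55 and 3.44 in all 4 bins.

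Further members with the motif are named here by their rank or, where stated, after their values were seen. The highest of those matched in both replicates, after the ones printed above, lay between F40E3.5 and F32B5.6 on chromosome I (rank 162, ranks 503 and 645 in the replicates), between C04E6.8 and C04E6.7 on V (rank 261, ranks 1413 and 677) and 2825 bp upstream of C33B4.2 on II (rank 350, ranks 941 and 1786). In the second of these the motif was centred 1.5 bp from the summit. The member 5924 bp upstream of nlp-47, a neuropeptide gene, had a pooled signal of 29.6, signals of 14.41 and 14.01 in replicates 1 and 2, and TAATCC 2.5 bp from its summit. Chosen after seeing the values, the member 5335 bp upstream of kal-1, the anosmin gene of axon branching, held 2 sites and ranked 58 in replicate 1, with no match in replicate 2. The member between egl-4 and egl-18, a GATA factor gene, held 2 sites and had a signal of 22.6 in replicate 2, with no match in replicate 1, at a pooled rank of 2742.

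The wider set of sequences gave no 6-mer that differed between members and flanks. Of all 6-mers, each counted with its reverse complement, 0 passed an adjusted p of 0.05 by Fisher's exact test with Benjamini-Hochberg adjustment (0% called); 131 had an unadjusted p below 0.05, of which 64 were higher and 67 lower in members. The lowest p belonged to ACTTCT, in 8.81% of members and 16.9% of flanks (Fisher's exact test, p = 0.000150, adjusted p = 0.202). AATCCA, which overlaps TAATCC, was in 16.3% of members and 9.27% of flanks (adjusted exact p = 0.282). Against the lower-ranked distal candidates 1 passed, CCCAAC, in 7.77% of members and 2.94% of candidates (adjusted exact p = 0.0241), and 161 had an unadjusted p below 0.05.

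GAGAGA, a repeat common at worm regions bound by many factors, was in 17.4% of members and 10.5% of lower-ranked distal candidates (Fisher's exact test, two-sided, p = 0.000161, adjusted over the 10 motifs p = 0.00161). Flanks held it in 14.2% of windows (exact p = 0.191 against the members), so the members did not pass against their own surroundings. Of 4 further 6-mers, 3 were less frequent in members than in near intergenic regions. The 4 were chosen with earlier results of these data known, so their p-values describe the difference and are not independent support. CGCGCA was in 2.07% of members and 8.61% of near intergenic regions (adjusted p = 4.25e-05), ATGCGC in 2.85% of members and 7.74% of near intergenic regions (adjusted p = 0.00313), and GACGCA in 4.40% of members and 9.99% of near intergenic regions (adjusted p = 0.00313), all by Fisher's exact test. ACGCAG, which overlaps GACGCA, was in 5.70% of members and 8.24% of near intergenic regions and did not pass (adjusted exact p = 0.314). In their shares of these letters the members were close to their flanks, where the 4 stood at 2.55% to 4.17% of windows. GTTCGANNC, the TFIIIC box of tRNA genes, was in 1.55% of members and 0.806% of flanks (p = 0.358, Fisher's exact test).

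**Figure D5:**
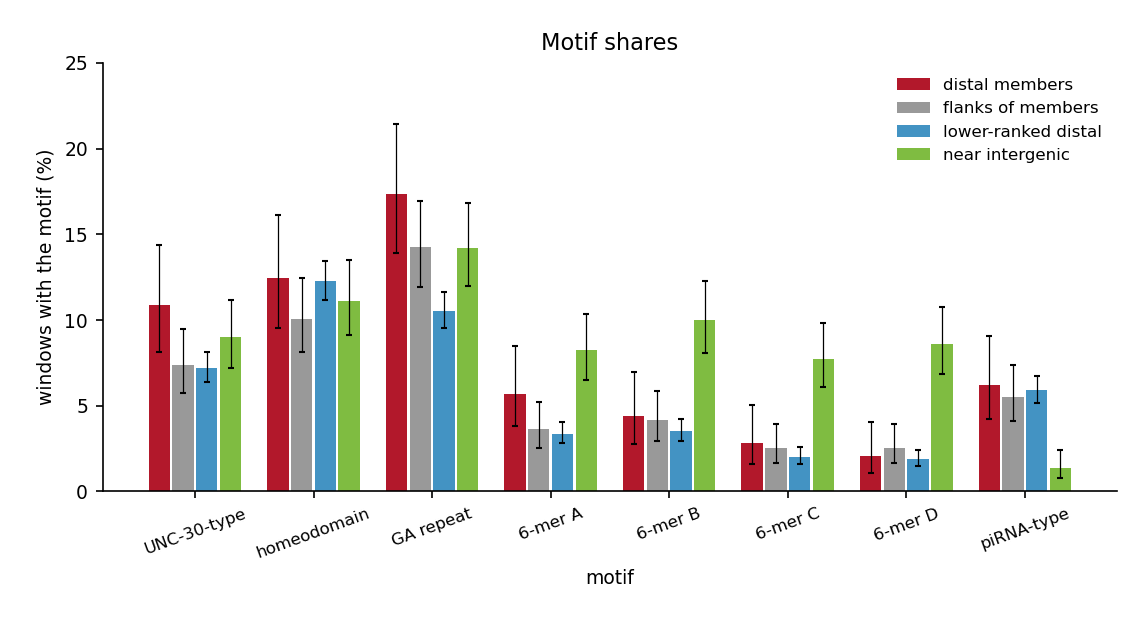
Percentage of 201 bp windows with each motif in members, flanks, lower-ranked distal candidates and near intergenic regions, with 95% Wilson intervals. UNC-30-type is TAATCC, homeodomain TAATTA, GA repeat GAGAGA, piRNA-type CTGTTTCA, 6-mer A is ACGCAG, 6-mer B is GACGCA, 6-mer C is ATGCGC and 6-mer D is CGCGCA; B, C and D stand lower in members than in near intergenic regions.

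Chromosome IV held the most members, 131 of 386 or 33.9%, and the lower-ranked distal candidates were divided in much the same way, with 33.5% on IV (Fisher's exact test, two-sided, p = 0.864). The other counts were 62 on I, 43 on II, 66 on III and 84 on V. Chromosome II held 11.1% of members and 14.9% of candidates (exact p = 0.0471, adjusted over the 5 autosomes p = 0.235), and no chromosome passed. Per Mb of sequence that meets the rule on position, there were 22.5 members on II and 34.8 to 42.2 on the other autosomes.

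The members on chromosome IV often lay among piRNA genes, whose products silence transposons in the germline. A piRNA gene was within 500 bp of 69 members, all on IV, or 52.7% of the members there, against 53.99% of the lower-ranked candidates on IV (Fisher's exact test, two-sided, p = 0.782). CTGTTTCA, the element found upstream of these genes, was added to the motif list after seeing this. It was in 6.22% of members, 5.89% of lower-ranked candidates, 5.51% of flanks and 1.37% of near intergenic regions. The members of rank 138 between Y105C5A.1 and pqn-76 and of rank 165 next to sru-15 lay 278 bp and 167 bp from a piRNA gene. No tRNA gene was within 500 bp of a member, which allows a share of up to 0.777%, against 17 of 3294 candidates (Fisher's exact test, p = 0.246).

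Members lay in long gaps between protein-coding genes, with a median gap of 9537 bp and a median distance of 3730 bp to the nearest 5′ end. The rule itself asks for such distances. The summit was upstream of that 5′ end in 277 members, or 71.8%, against 68.0% of lower-ranked candidates (Fisher's exact test, two-sided, p = 0.133). Convergent genes flanked 10.4% of members and 13.4% of candidates (exact p = 0.110), divergent genes 31.3% of members and 30.8% of candidates, and tandem genes 58.3% of members and 55.8% of candidates. The 386 members fell into 314 gaps, and 57 gaps held at least 2 members. The gap between F54F12.1 and Y39E4B.6 on III held 5 members, the most of any gap, with a highest signal of 49.3. The gaps saeg-1/F32D8.1 on V and C55C3.1/H35B03.1 on IV held 4 members each, and several gaps held 3. One of the latter, chosen here for its function after the values were seen, was a gap of 17428 bp next to the Hox gene nob-1. Its highest member stood at rank 1376, and most other gaps with 3 had a higher one. The number of members per gap was not set against a background.

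Repeated sequence was rare. In 2 members, 0.518%, over 50% of the window's 36-mers occurred more than once in the genome, against 0.364% of lower-ranked candidates (Fisher's exact test, two-sided, p = 0.652), 0.250% of near intergenic regions (p = 0.600) and 3.90% of flanks (p = 0.000404). Counting windows with any repeated 36-mer turned the direction against the candidates, with 4.66% of members and 7.59% of lower-ranked candidates (exact p = 0.0378). G+C content had a median of 31.8% in members, 32.8% in flanks and 30.8% in lower-ranked candidates. The median difference of members minus flanks was −1.49 percentage points (interval of the median −1.99 to −0.498), and 218 of 386 members were below their flanks. Unlike the members, 114 of the 744 flanks, or 15.3%, lay inside a gene body, and 518 met the rule on position. The G+C difference was not recomputed with those 518 alone, so it does not separate the summit from position. Without replicate 2 the G+C difference was 0, and among the 1000 highest regions it was 0.746.

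The flanking genes were 613 of the 6371 protein-coding genes that border sequence meeting the rule on position, or 9.62%. No gene of the GABA identity list flanked a member, among 2 that could have. For the D-type motor neuron list it was 0 of 5, for GABA receptors 0 of 5 and for cholinergic motor neuron genes 0 of 8. These lists have few eligible genes, which limits what a count of 0 can show. They were written with earlier results of these data known and are described by counts alone.

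Genes that all neurons use flanked a member in 3 of 14 eligible cases. Besides unc-64, these were ric-4, the SNAP-25 gene, 2589 bp upstream of which lay a member with a pooled signal of 27.6 and ranks 1933 and 3890, and unc-13, a synaptic vesicle priming gene. The member 2814 bp upstream of unc-13 had a pooled signal of 21.1, no match in replicate 1 and rank 6435 in replicate 2. Of the axon guidance list, ptp-3, a receptor tyrosine phosphatase gene, was the only one of 15; its member, 2603 bp upstream, was the last of all at rank 3000 and had no match in replicate 1.

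Neuropeptide genes flanked a member in 6 of 57 eligible cases (nlp-40, nlp-47, nlp-81, nlp-13, nlp-9 and nlp-8), or 10.5%, and nuclear hormone receptor genes in 13 of 122, or 10.7%, both near the 9.62% of all eligible genes. The member 4990 bp upstream of nlp-81 ranked 865 in replicate 1 and 9079 in replicate 2. The member 2734 bp upstream of nlp-8 held TAATCC 7.5 bp from its summit but was outside the 3000 highest regions of both replicates. Homeobox genes named ceh flanked a member in 4 of 24 cases, ceh-24, ceh-43, ceh-32 and ceh-58, and 1 of the 4 members was matched in a replicate (ceh-24, rank 1853 in replicate 2). Muscle genes flanked a member in 2 of 15 cases, unc-15, the paramyosin gene, and act-1, an actin gene. Chemoreceptor genes did so in 15 of 502 cases, or 2.99%, F-box genes in 1 of 109 and cuticle collagen genes in 1 of 39. Ribosomal protein genes flanked a member in 3 of 10, C-type lectin genes in 2 of 75, sperm protein genes in 2 of 17 and histone genes in 0 of 2.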

How the data were processed

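Per the README files, the authors deposited, for either replicate and for both pooled, a list of 30000 candidate regions (peaks and background, in narrowPeak form), and a list thresholded by the irreproducible discovery rate. No source used here names the aligner, peak caller, control or threshold. The deposited signal value per region is the authors' own, was used only to rank regions within a list and is described as such. The deposited −log10 q-values were used only as a description. The ce11 lists were used; the ce10 lists were not used here.

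Regions were ranked by signal, with 10 mitochondrial regions left in replicate 2's ranking. Positions came from the Ensembl release 115 annotation of WBcel235 and sequence from its RefSeq genome. Motifs and 6-mers were counted once per 201 bp window on either strand. TAATC and TAAT are contained in TAATCC, and TAATTA shares TAAT with it, so these counts are not independent. Flanks touching the window of a region among the 3000 highest were left out. Repeats were measured as the share of 36-mers occurring more than once. Tests were Fisher's exact tests (two-sided) in scipy 1.17.1 on Python 3.11.15, with Benjamini-Hochberg adjustment where stated and 95% Wilson intervals; the 6-mer test and the repeat measure were tested on simulated data. The interval of a median comes from order statistics.

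The members, gene lists and motifs were chosen with earlier results of these data known. Named members were the 20 of highest signal, the first 10 matched in both replicates, the first 6 with TAATCC, the first 6 with both, and those beside listed genes; others are said to be chosen after their values were seen. Alternatives changed the number of regions, the limits of position, the window, the flanks, the match and the replicate used.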

Additional observations from a re-analysis of the deposited data

How the results depend on the processing

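Over 164 alternative values of 15 results, 124 kept their direction and their side of the threshold or stayed within the limits set for a count or share. Differences below are members minus the other set, in percentage points. With the 1000 highest regions there were 137 members, TAATCC stood 7.92 points above flanks (past the threshold), TAATTA 1.23 points below them (−1.23), 16.1% of members were matched in both replicates, and the G+C difference was 0.746. With the 6000 highest there were 773 members, TAATCC against lower-ranked candidates fell short of the threshold at 2.00 points, 2.85% were matched, the matched share passed against intronic regions at 1.32 points, and repeats against lower-ranked candidates stood at −0.154. With the 3000 highest autosomal regions TAATCC passed against flanks at 3.37 points, and with the 500 highest, a range picked after its share was seen and so not read as a test, it stood 9.24 points above near intergenic regions.

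A limit of 1000 bp from a 5′ end gave 587 members, with TAATCC past the threshold against flanks at 3.41 points, the matched share against intronic regions at 2.47 points and convergent genes against lower-ranked candidates at −3.15 points, and repeats against those candidates at −0.0222. A limit of 4000 bp gave 184 members, with TAATCC no longer past the threshold against lower-ranked candidates at 1.67 points and below near intergenic (−1.08) and intronic regions (−1.02), and repeats at −0.399 against near intergenic regions and −0.203 against lower-ranked candidates. With protein-coding gene bodies only, 2 6-mers passed and the matched share passed against intronic regions at 2.59 points. TAATCC against flanks passed with windows of 50 bp (4.08 points), without repeated windows (3.77) and with flanks at 2000 bp (4.62); against lower-ranked candidates it did not pass with windows of 200 bp (3.51). Any repeated 36-mer in place of over 50% turned the direction against lower-ranked candidates and passed the threshold, at −2.93 points. Paired to 1 flank each, members stood 3.75 points above flanks for TAATCC and did not pass (exact McNemar test, p = 0.0980).

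The share matched in both replicates was 3.63% with summits within 50 bp, 2.33% with the 1000 highest regions of each replicate and 52.6% over whole lists, where the differences were −2.09 points against near intergenic and −0.546 against intronic regions. Leaving out 1 replicate, by taking members from the other's own list, gave 1.67 to 3.76 points for TAATCC against flanks, 0.937 to 3.57 against lower-ranked candidates, 0 to 2 6-mers, −0.0356 to 0.319 points for repeats against lower-ranked candidates and −1.74 to 0 for G+C. The cause of these changes was not tested. With no read counts, what depth limits is unknown, and the number of regions limits the intervals. No paired analysis was possible because both replicates belong to 1 group, which leaves no contrast between groups to block by replicate.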
